A study of Mus musculus with 10 samples.

Results

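Transcripts of 9 tubulin genes were examined in mouse neutrophils that carried or lacked vimentin, an intermediate filament protein. The 9 genes were chosen by symbol from the 13091 genes of the deposited tables, so their presence there is not a result. They were the 4 alpha-tubulin genes Tuba1a, Tuba1b, Tuba1c and Tuba4a, the 4 beta-tubulin genes Tubb2a, Tubb4b, Tubb5 and Tubb6, and the gamma-tubulin gene Tubg1. The neutrophils were differentiated in culture from bone marrow progenitors of 129-SVEV mice. The progenitors were immortalized with an estrogen-dependent HoxB8, which keeps them dividing, and matured when estrogen was withdrawn. The study's progenitor lines were each grown from a single cell, and the labels give 2 biological replicates of Vim+/+ and 3 of Vim-/- neutrophils without tying them to lines. The Vim+/+ replicates were numbered 1 and 3, and none was numbered 2. The labels name the vimentin-deficient cells a knockdown, whereas the study's methods and design describe a knockout. The replicates of each genotype were labelled with the same numbers unstimulated and after 1 hour with 25 ng/mL of lipopolysaccharide (LPS), a bacterial cell wall component that activates neutrophils, which gave 10 libraries in 4 groups.

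The 4 tables held 1 level for each gene, the authors' mean normalized count over all 10 libraries, beside columns of the authors' own comparisons between groups. The comparison columns were not used here, so no difference between genotypes or with LPS is given. The mean pooled 4 Vim+/+ with 6 Vim-/- libraries, and 5 unstimulated with 5 LPS-treated libraries. It was the same in the 4 tables, and the fit is assumed to have held the 10 labelled libraries and no other. Levels per library, the depth of each library and the spread between replicates are therefore not known from these tables, and the values below carry no error and no test. Whether neighbours in an order of levels differ beyond the spread between libraries was not tested. Across all genes the authors' mean ran from 5.08 to 1290830, with a median of 907.

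Microtubules are hollow tubes built from dimers of alpha- and beta-tubulin, and gamma-tubulin sits in ring complexes that start new microtubules, above all at the centrosome. Mammals make each kind of tubulin from several genes, the isotypes, whose proteins are alike over most of their length and differ mainly in a short acidic tail at the carboxyl end. In neutrophils, microtubules radiate from the centrosome, and they help to organise the cell's rear, its granules and its lobed nucleus during migration. Cells also sense the amount of free tubulin: when it rises, the factor TTC5 recognises the first residues of a nascent tubulin chain and its mRNA is degraded.

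The first 12 coding bases of 8 members, all but Tubb6, are shown because this start is what tubulin mRNA autoregulation reads. They were taken from GENCODE M21 transcripts on GRCm38, and capitals are not used since the whole run matters.
Tuba1a: atgcgtgagtgc
Tuba1b: atgcgtgagtgc
Tuba1c: atgcgtgagtgc
Tuba4a: atgcgcgagtgc
Tubb2a: atgcgcgagatc
Tubb4b: atgagggagatc
Tubb5: atgagggaaatc
Tubg1: atgccgagagaa
Tuba1a, Tuba1b and Tuba1c shared 1 start, base for base, and Tuba4a encoded the same 4 residues. Of 11182 listed genes whose coding start could be read, 5 genes (0.0447%) encoded the alpha-tubulin start, and these were the 4 alpha-tubulin genes above and Tuba8. The beta-tubulin start was encoded by 6 genes (0.0537%), which were Tubb2a, Tubb2b, Tubb4a, Tubb4b, Tubb5 and Tubb6. Tubg1 began differently, and its first 4 residues were shared with Ccne1, which encodes a cyclin, and Rplp0, which encodes a ribosomal protein, 3 genes in all (0.0268%). A shared start is a description of these sequences and not a measure of regulation. In Tuba1a, Tuba1b, Tuba1c and Tuba4a the start codon was the only coding part of its exon and the other 9 bases lay in the next one. In Tuba1a these pieces were chr15:98953451-98953453 and chr15:98951683-98951691, on the minus strand.

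The last 60 coding bases of Tubb5, Tubb4b and Tubb2a, stop codon included, are shown because they encode the tail in which isotypes differ. Capitals mark bases that differ from Tubb5 after alignment of the whole coding sequences. A base set against a gap is also in capitals.
Tubb5: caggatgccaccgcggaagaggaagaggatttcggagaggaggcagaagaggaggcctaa
Tubb4b: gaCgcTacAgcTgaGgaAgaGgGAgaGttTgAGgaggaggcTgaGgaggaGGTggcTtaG
Tubb2a: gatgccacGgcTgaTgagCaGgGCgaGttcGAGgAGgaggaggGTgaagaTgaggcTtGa
Tubb4b had 20 marked bases and Tubb2a had 18. On GRCm38 the tail of Tubb5 lay at chr17:35834982-35835041, that of Tubb4b at chr2:25222308-25222367 and that of Tubb2a at chr13:34074468-34074527. Each lay within 1 exon on the minus strand.

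Among the alpha-tubulins, Tuba4a was the most abundant transcript. Its authors' mean was 36797 normalized counts, which ranked it at place 200 of 13091 genes, the 98.5th percentile. Tuba1c followed at 9288 (91.3rd percentile), then Tuba1b at 6669 (87.7th percentile) and Tuba1a at 5776 (85.9th percentile). TUBA4A is an alpha-tubulin known for its abundance in platelets and for a gene that does not encode the terminal tyrosine other alpha-tubulins carry. TUBA1A is best known from developing neurons, whereas TUBA1B and TUBA1C are broadly expressed.

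Long transcripts give more reads than short ones at the same number of molecules, so levels of different genes were compared per kilobase of transcript. The transcript of Tuba4a was 2840 bases long, whereas those of Tuba1a, Tuba1b and Tuba1c were 1803, 1743 and 1982 bases. On this scale Tuba4a had 12957 normalized counts per kilobase and made up 52.5% of the alpha-tubulin sum. Tuba1c had 4686 per kilobase and made up 19.0%. Tuba1b had 3826 and Tuba1a 3203, which were 15.5% and 13.0% of the sum. The level of Tuba4a per kilobase was 2.76 times that of Tuba1c, 3.39 times that of Tuba1b and 4.04 times that of Tuba1a. These folds depended on the scaling: by the mean itself they were 3.96, 5.52 and 6.37, whereas by positions unshared with other tubulin transcripts Tuba4a took 38.5% of the sum against 26.8%, 20.8% and 13.9%. It was 1.11 times the 3 other genes added together. That order turned when means were divided only by positions unshared with other tubulin transcripts or with any other gene, where Tuba4a took 38.5% and 48.1% of the sum. Tuba1c was 1.22 times Tuba1b, and Tuba1b was 1.19 times Tuba1a. By positions unshared with any other gene Tuba1b (19.0%) stood above Tuba1c (18.2%).

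**Figure D1:**
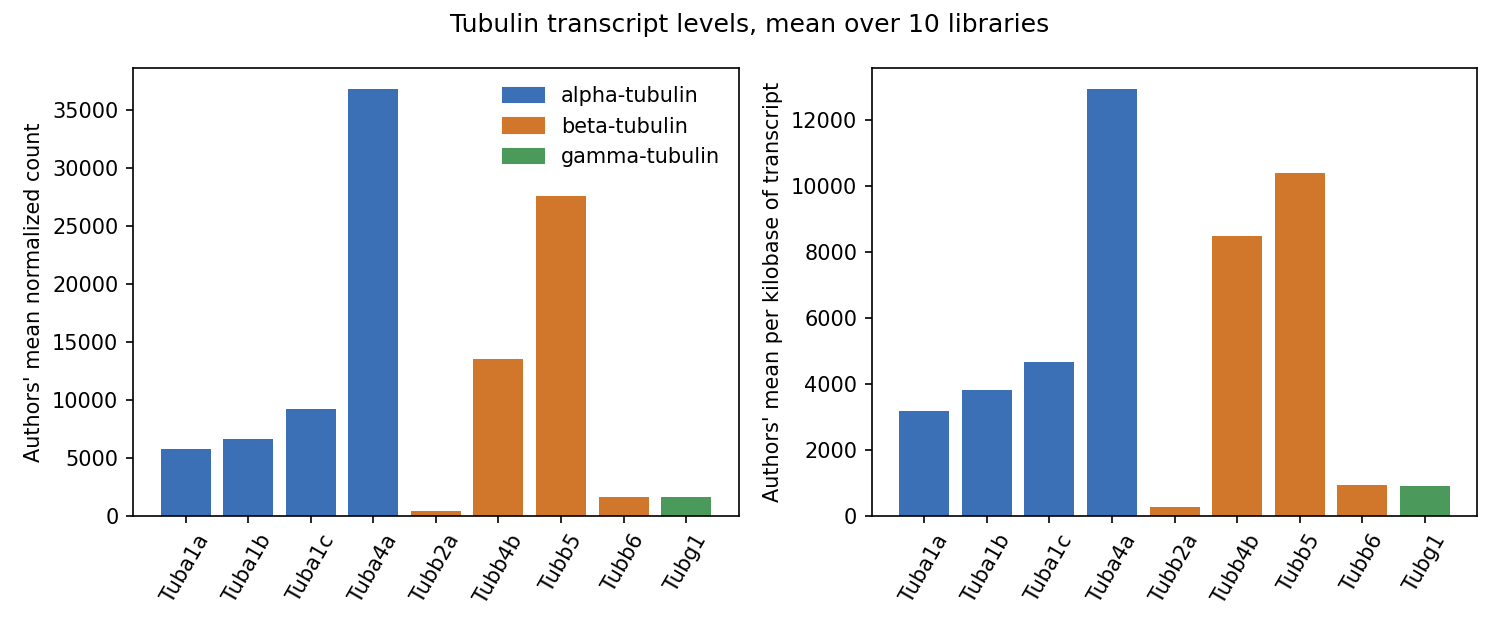
Level of each tubulin gene as the authors' mean normalized count over 10 libraries (left) and as that mean per kilobase of the longest complete coding transcript (right), with bars from 0 coloured by kind of tubulin. No error bars are drawn, since the tables hold no values per library; Tuba4a and Tubb5 stand highest on both scales, and Tubb2a stands lowest.

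Among the beta-tubulins, nearly the whole level came from a pair of genes, Tubb5 and Tubb4b. The authors' mean was 27592 normalized counts for Tubb5 (rank 305, 97.7th percentile) and 13567 for Tubb4b (rank 751, 94.3rd percentile). Tubb6 stood at 1670 (62.4th percentile) and Tubb2a at 448 (38.4th percentile). Tubb2a was the only member under the median gene. TUBB5 is a beta-tubulin of most dividing cells, TUBB4B is broadly expressed and abundant in cilia, TUBB2A is best known from neurons, and TUBB6 is a divergent beta-tubulin expressed at varying levels across tissues.

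Per kilobase of transcript, Tubb5 had 10416 normalized counts and Tubb4b 8490. They made up 51.7% and 42.2% of the beta-tubulin sum, 93.9% together. Tubb6 had 950 per kilobase (4.72%) and Tubb2a 278 (1.38%), 6.10% together. Division by length brought the leading genes closer: Tubb5 was 2.03 times Tubb4b by the mean itself and 1.23 times per kilobase, since its transcript has 2649 bases and that of Tubb4b has 1598. The order turned by positions unshared with other tubulin transcripts, where Tubb4b took 47.4% and Tubb5 46.5%. Tubb6 was 3.41 times Tubb2a per kilobase. Tubb5 was 37.4 times Tubb2a on the same scale and 61.6 times by the mean itself. By positions unshared with other tubulin transcripts, Tubb5 took 46.5% and Tubb2a 1.79%.

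The 2 leading genes of each kind set the order across kinds. Tuba4a was 1.24 times Tubb5 and 1.53 times Tubb4b per kilobase, and Tubb4b was 1.81 times Tuba1c. By the mean itself these folds were 1.33, 2.71 and 1.46. Tuba4a and Tubb5 alone made up 52.2% of the summed alpha- and beta-tubulin level. The alpha-tubulin sum was 24673 normalized counts per kilobase and the beta-tubulin sum 20134, a ratio of 1.23. The ratio was 2.20 when means were divided by positions unshared with any other gene, and 1.23 was the lowest value of all scalings tried. In the protein dimer the kinds are paired one to one, but this ratio is one of transcripts and takes no account of translation. Together the 9 genes held 0.186% of the summed means of all genes. The median gene of the 9 lay at the 87.7th percentile, 8 of 9 lay above the median gene of the tables, and 2 lay in the top 5% by the mean. Ranked per kilobase, Tubb4b also lay there, at the 96.1st percentile. These ranks hold for the 9 members only, since the 5 other listed tubulin genes had a median at the 27.0th percentile by the mean.

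**Figure D2:**
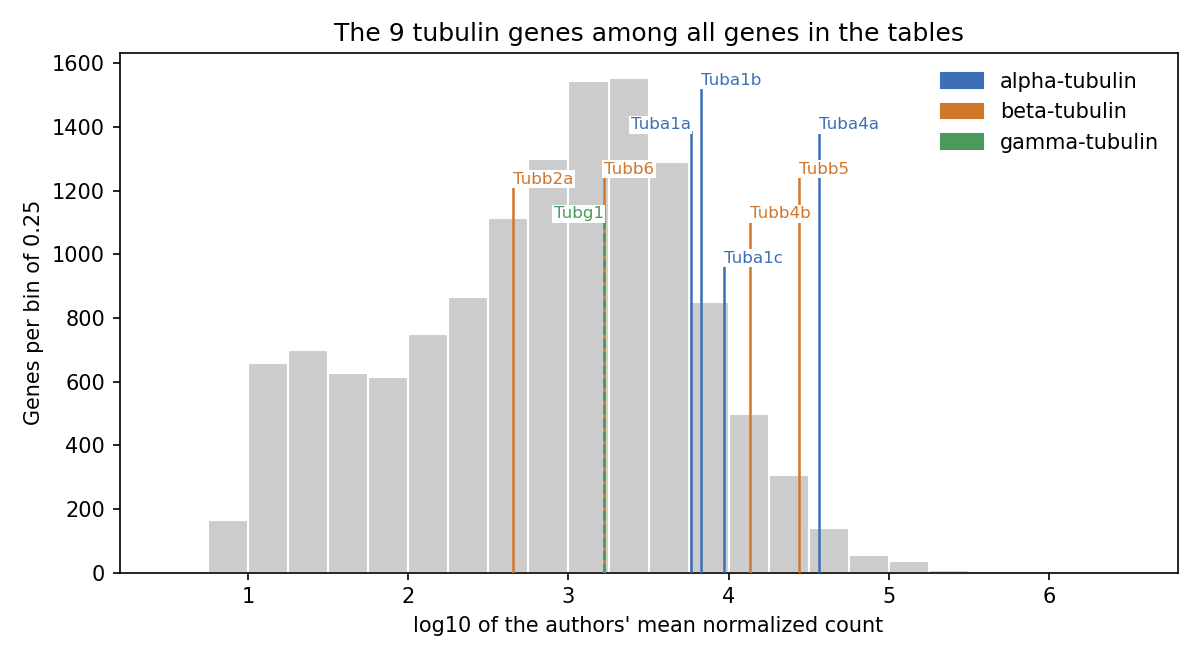
Number of genes (vertical axis) in bins of the log10 of the authors' mean normalized count, over the 13091 genes, with a vertical line at each tubulin gene coloured by kind; line heights carry no value. Of the 9 lines, 8 lie above the median of 907 and that of Tubb2a, at 448, lies under it, while Tubb6 and Tubg1, at 1670 and 1657, lie almost on each other.

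Tubg1, which encodes the gamma-tubulin that nucleates microtubules, was far lower than the leading alpha- and beta-tubulins. Its authors' mean was 1657 (62.2nd percentile) and its level per kilobase 920, close to that of Tubb6 (Tubb6 over Tubg1, 1.03). The summed alpha- and beta-tubulin level per kilobase was 48.7 times that of Tubg1. All 9 listed genes of the gamma-tubulin ring complex and its attachment factors were in the tables, with means from 501 to 2120 and a median of 1074, at the 53.3rd percentile. The highest by the mean were Tubgcp2 at 2120 and Tubgcp3 at 1835, which encode core subunits of the ring, although Mzt1 (538) stood above Tubgcp3 (483) per kilobase. Per kilobase Tubg1 exceeded each of the 9, being 1.28 times Tubgcp2 (716 per kilobase), the highest of them, and 3.64 times their median of 253. This order depended on the division by length, since by the mean itself Tubg1 stood under Tubgcp2 and Tubgcp3.

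Of 11 further tubulin genes looked for, 5 were in the tables. Tuba8, an alpha-tubulin described in muscle and testis, stood at 2938 normalized counts (74.1st percentile) and at 1298 per kilobase, 1.37 times Tubb6. With Tuba8 in the alpha-tubulin sum, the share of Tuba4a was 49.9%. The others were low: Tube1 at 183, Tubb2b at 180, Tubd1 at 144 and Tubb4a at 34.9 normalized counts. Tube1 and Tubd1 encode the epsilon- and delta-tubulin of centrioles. Tuba3a, Tuba3b, Tubal3, Tubb1, Tubb3 and Tubg2 had no row in the tables. The tables held no gene with a mean under 5.08, so nothing is said of the level of those 6 genes.

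The tubulin proteins of a kind were nearly identical, which bears on how reads can be told apart. Identity was 95.8% to 99.6% within the 4 alpha-tubulins and 90.2% to 97.5% within the 4 beta-tubulins. It was 39.3% to 41.4% between the kinds and 30.5% to 33.4% between Tubg1 and the others. Tuba1a and Tuba1b differed in 2 of 451 aligned residues and in 23 columns of their aligned coding sequences, an identity of 98.3%. Tuba4a was 96.2% identical to Tuba1b in protein but 85.0% in coding sequence. Tubb5 and Tubb4b were 97.5% identical in protein and 82.2% in coding sequence. Tubb6 was the most divergent beta-tubulin, at 90.2% to 91.1% of protein identity. Tubb2a and Tubb2b differed in 2 residues of 445, and their coding sequences were 96.5% identical.

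The reads were 150 bases long, so each transcript was divided into every window of 150 bases, and windows that also occur exactly in another tubulin transcript were counted. In Tuba4a, Tubb5 and Tubb6, 100% of windows occurred in no other tubulin transcript, and in Tubg1 99.1%. The share was 83.2% in Tubb4b, 72.1% in Tubb2a and 70.6% in Tuba1a. It was 56.6% in Tuba1b and 53.3% in Tuba1c, whose longest common run was 468 bases. Of the windows of Tuba1c wholly within its coding part, 28.7% were its own, and most of its own windows reached outside that part. The longest run of Tubb2a shared with another gene was 551 bases, with Tubb2b, and that of Tubb4b was 260, with the pseudogene Tubb4b-ps1. How the counting treated reads that fit several genes was not given in the sources used here, so the split among Tuba1a, Tuba1b and Tuba1c is uncertain. The same holds for Tubb2a against Tubb2b.

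**Figure D3:**
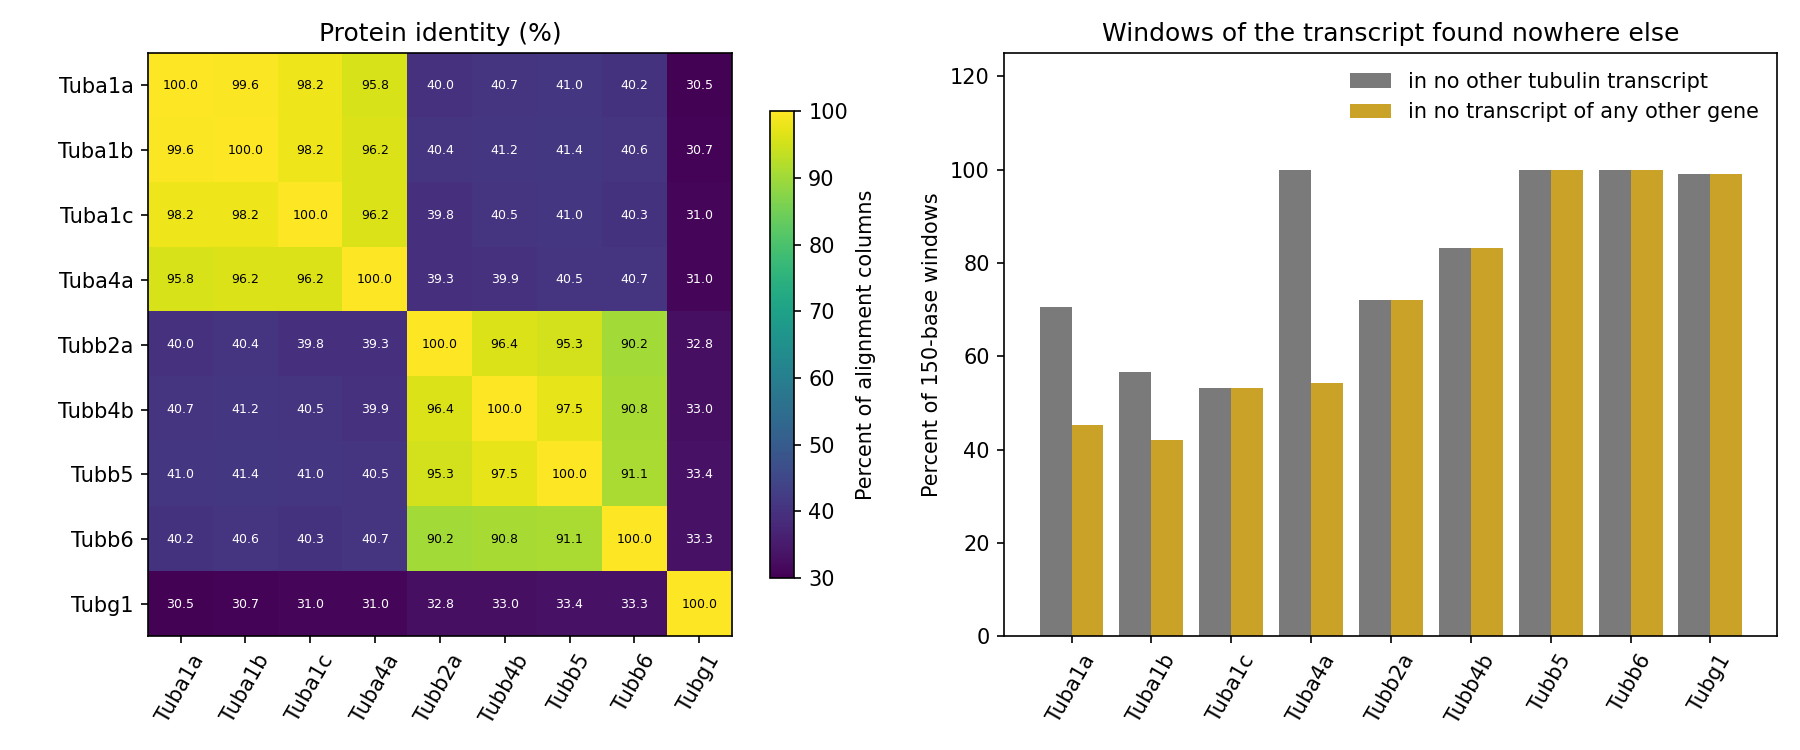
Left, percent of alignment columns with the same residue for each pair of the 9 tubulin proteins, as a colour scale with the value in each cell; right, percent of the 150-base windows of each transcript that occur in no other tubulin transcript (grey) or in no transcript of any other annotated gene on either strand (yellow). Alpha- and beta-tubulins form blocks of at least 95.8% and 90.2% identity, and Tuba4a falls from 100% to 54.3% of windows once all genes are counted.

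Tuba4a, the highest of the 9, overlapped a neighbour instead. Stk16, which encodes a protein kinase, lies on the opposite strand, and its exons covered 1379 of the 2840 bases of the Tuba4a transcript (48.6%), none of them coding. With transcripts of all genes counted, 54.3% of the windows of Tuba4a were its own. The share was lower still for Tuba1c, at 53.3%, Tuba1a, at 45.3%, and Tuba1b, at 42.1%. Each of these shared windows with Gm49450 and other annotated genes besides tubulins, so their uncertainty is not only among the Tuba1 genes. The authors' mean of Stk16 was 5822 normalized counts, against 36797 for Tuba4a. Whether the counting used strand was not given in the sources used here. Without strand, read pairs that lie wholly in the overlap cannot be told apart. Tuba1a and Tuba1b shared exons on the same strand with the annotated gene Gm49450, over 26.2% and 24.4% of their transcripts. Gm49450 had no row in the tables. Tubb4b overlapped Fam166a on the opposite strand over 7.57% of its transcript, and Tuba1b overlapped the antisense gene Gm41396 over 4.99%, whose authors' mean was 15.8.

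If every shared read had been left out, with each full-length read taken alone, a mean would reflect only the transcript's own positions. Dividing by the positions unshared with other tubulin transcripts gave Tuba4a 38.5% of the alpha-tubulin sum, Tuba1c 26.8%, Tuba1b 20.8% and Tuba1a 13.9%. Tuba4a remained the highest alpha-tubulin in each of the 6 alternative scalings tried, between 38.5% and 63.0%. Among the beta-tubulins the order of the leading pair turned: Tubb4b took 47.4% and Tubb5 46.5%. The lead of Tubb5 over Tubb4b therefore depended on how shared reads were counted, whereas Tubb6 and Tubb2a came after them in every scaling.

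**Figure D4:**
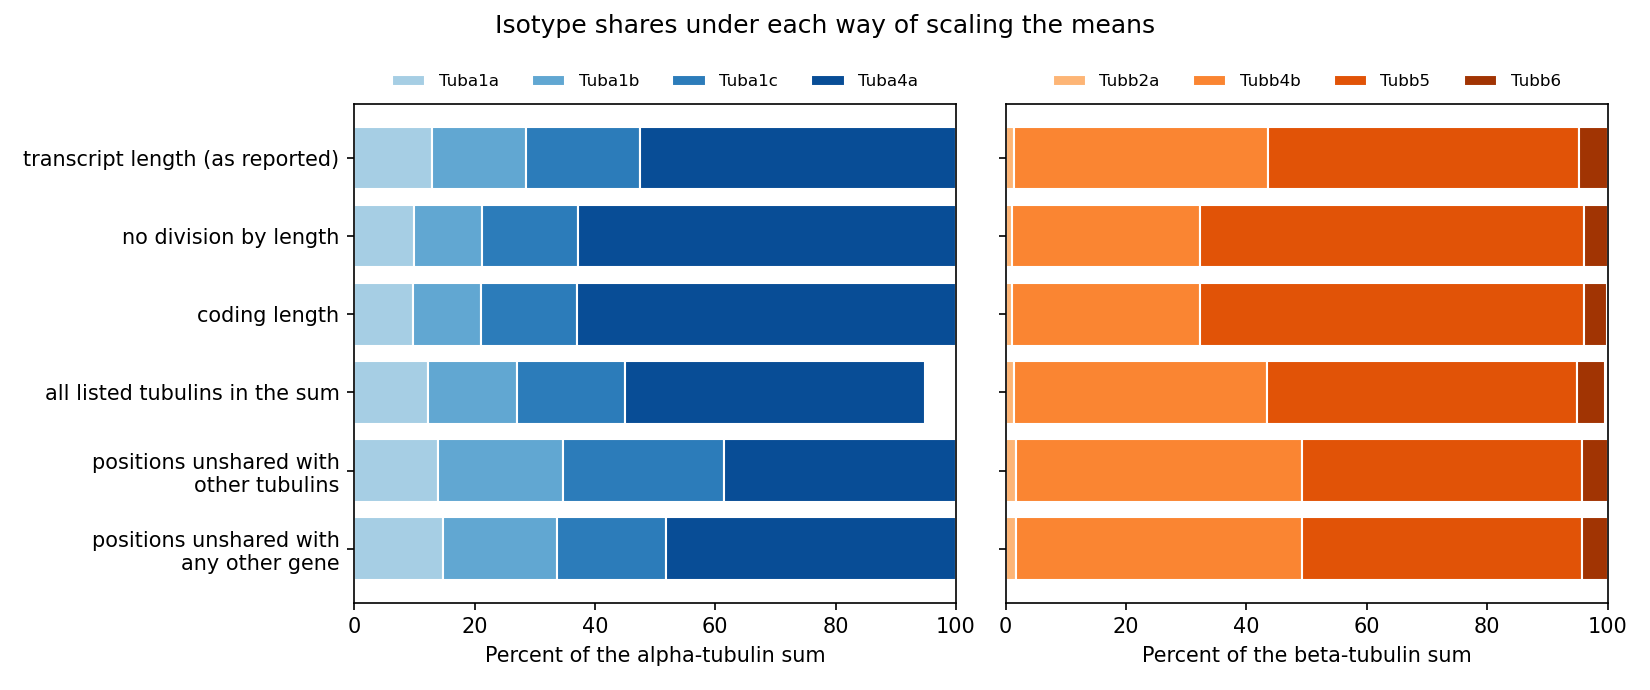
Percent of the alpha-tubulin sum (left) and of the beta-tubulin sum (right) taken by each isotype, as stacked bars, for 6 ways of scaling the authors' means; a bar short of 100% leaves the rest to tubulin genes outside the 9. Tuba4a takes 38.5% to 63.0% and Tubb5 46.5% to 63.8%.

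The positions of the genes, on GRCm38 in GENCODE M21, were as follows. Tuba1a (chr15:98949837-98953703, minus strand), Tuba1b (chr15:98931425-98934565, minus strand) and Tuba1c (chr15:99029891-99038110, plus strand) lay within 107 kilobases of each other. Tuba4a was at chr1:75214228-75219865 and Tubb2a at chr13:34074274-34078007, both on the minus strand. Tubb4b was at chr2:25222160-25224702 and Tubb5 at chr17:35833921-35838306, also on the minus strand. Tubb6 was at chr18:67390717-67402749 and Tubg1 at chr11:101119938-101126419, on the plus strand. The transcripts of 8 members had 4 exons and that of Tubg1 had 11, and their proteins had 444 to 451 residues. Each member had 1 complete coding transcript in this annotation.

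Genes that fold tubulin were all in the tables. New tubulin chains are carried by prefoldin to the chaperonin CCT and then joined into dimers by the tubulin folding cofactors. The 8 CCT subunits had means from 3493 to 10362, with a median at the 88.1st percentile, which is close to the median of the 9 tubulin genes. Cct2 at 10362 and Cct5 at 9223 were the highest of them. The 6 prefoldin subunits had means from 459 to 8561 (median percentile 69.4), with Pfdn5 at 8561 and Pfdn2 at 2664 highest by the mean. Per kilobase Pfdn5 was again highest (8062), but Pfdn1 (2238) and Pfdn6 (1767) stood above Pfdn2 (1536). The 7 folding cofactors ranged from 467 to 3982 (median percentile 64.7), with Tbcel at 3982 and Tbcb at 3617 highest by the mean. Per kilobase Tbca (3325), Tbcb (2555) and Tbcc (830) stood above Tbcel (796). Tbcel encodes a cofactor-like protein that has been described to destabilise tubulin.

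The 3 genes of tubulin mRNA autoregulation were also listed, with means from 919 to 2739. Cnot11, a subunit of the CCR4-NOT deadenylase, stood at 2739, Ttc5, which recognises the nascent chain, at 974, and Scaper, the adaptor between them, at 919. Of 13 genes whose products modify tubulin or its tail, 12 were in the tables, and Vash2 was not. Their means ran from 103 to 7855 with a median of 574, at the 42.0th percentile. The highest by the mean were Sirt2 at 7855, which removes acetyl groups from alpha-tubulin and other proteins, and Agtpbp1 at 2359, which trims glutamates from tubulin tails. Per kilobase Sirt2 was again highest (3711), but Svbp (777) and Hdac6 (481) stood above Agtpbp1 (289). Ttl, the ligase that restores the terminal tyrosine of alpha-tubulin, stood at 106, and Vash1, which removes that tyrosine together with the product of Svbp, at 103. Ttl, Vash1, Scaper and the genes named only for their order per kilobase were picked out after their values were seen.

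Of the 14 genes of microtubule binding proteins, 14 were listed, with means from 45.7 to 8873 and a median of 3581, at the 77.8th percentile. Mapre1, which encodes the plus-end protein EB1, was the highest by the mean, at 8873, followed by Clip1, a plus-end linker, at 5761. Per kilobase the order turned, and Stmn1, which encodes the tubulin-sequestering protein stathmin, had 4959 against 1210 for Mapre1 and 939 for Clip1. Per kilobase these 14 genes had a median of 583 normalized counts, against 2841 for the CCT subunits and 253 for the gamma-tubulin ring complex.

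The label of the cells was checked against marker genes. All 11 neutrophil markers were in the tables, with means from 11373 to 1290830 and a median at the 99.7th percentile, and S100a9 at 1290830 and Ngp at 1107492 were the highest by the mean. Per kilobase S100a8 (1930402) stood above Ngp (906294). The progenitor markers were also listed, and some were high: Mpo, at 121760 and the 99.7th percentile, stood above the neutrophil marker Itgam at 114603, and Elane, at 21946, lay at the 96.9th percentile. Cd34 stood at 2564 and Kit at 1075. Among 3 monocyte markers the means ran from 1256 to 26480, led by Ly6c2 at 26480 and Csf1r at 3269. None of 2 T cell markers and 1 of 2 B cell markers, Cd79a at 83.8, had a row. In bulk libraries, fewer cells of a type and less RNA per cell cannot be told apart, and the part of immature or other cells in the tubulin levels was not tested.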

How the data were processed

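Per the labels and the study's methods, polyadenylated RNA of 10 libraries was sequenced as pairs of 150-base reads. The authors trimmed reads with Cutadapt 4.4, aligned and quantified them with STAR 2.7.10b on mm10, and fitted DESeq2 1.26.0 with covariates of unwanted variation from RUVseq. The annotation, the strand setting and the treatment of reads that fit several genes were not given in the sources used here. The 4 deposited tables give the authors' mean normalized count as a signal for each gene, pooled over libraries, so library depth is unknown and no interval can be given. Their other columns hold the authors' fold changes, standard errors, test statistics, p-values and categories for each comparison, and these were not used.

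Means were ranked over 13091 genes and divided by the length of the longest transcript with a complete coding sequence in GENCODE M21 (GRCm38, the assembly called mm10), which was matched for 12046 genes (92.0%). The division assumes that the counted reads came from that transcript. No shorter transcript was tried for genes outside the 9 members. Percentile is the percent of listed genes with a lower level. Windows of 150 bases were matched exactly on both strands, and sequences were aligned globally. Python 3.11.15, numpy 2.4.6, pandas 2.3.3, Biopython 1.88 and matplotlib 3.10.9 were used. The functions for windows, shared runs, identity and percentile were tested on simulated data, and the division by length was not. A count model had been planned only for counts per library. All 9 members were named, with the 2 genes of highest mean in each list. Members and lists were chosen with earlier results of these data known. The tail sequences of the alpha-tubulin genes are not reported here.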

Additional observations from a re-analysis of the deposited data

How the results depend on the processing

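The ratio of the alpha- to the beta-tubulin sum was 1.23 as reported, 1.28 with all listed tubulin genes in the sums, 1.34 by coding length, 1.35 with no division by length, 1.49 by positions unshared with other tubulin transcripts and 2.20 by positions unshared with any other gene. In the same order of settings, the share of Tuba4a was 52.5%, 49.9%, 63.0%, 62.9%, 38.5% and 48.1%, and that of Tubb5 was 51.7%, 51.5%, 63.8%, 63.8%, 46.5% and 46.5%. The setting of positions unshared with any gene was chosen after seeing the data. It placed Tuba1b (19.0%) above Tuba1c (18.2%), and both settings of unshared positions placed Tubb4b above Tubb5. The shortest complete coding transcript gave the reported values, since each member has 1. The median percentile of the 9 genes was 87.7, 84.4 among genes with a mean of at least 100, and 91.4 per kilobase. No paired analysis was possible because the tables hold no values per library. For the same reason the planned tests of genotype and LPS, and their alternatives that leave out a replicate, were not run. Depth could not be weighed, and no order of levels has a replicate check.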
